A study of Mus musculus with 12 samples.

Results

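ZnO nanoparticles (ZnO NPs) were compared with vehicle in the skin of mice that lack *Cdc42* in their keratinocytes. The comparison was made on the 3 libraries of the KO group and the 3 of the KO+ZnO NPs group, chosen by their sample labels out of 12 libraries in the study, and across the 18822 genes that passed the filter on low counts. Both groups are C57BL/6 mice labelled Cdc42-/- and 3 months old, and their skin was taken on day 14. KO mice received the vehicle, normal saline with hydroxypropyl methylcellulose (HPMC), on shaved back skin, and KO+ZnO NPs mice received ZnO NPs in the same vehicle. The gene was floxed and deleted by Cre under the keratin K5 promoter, which is active in basal keratinocytes and the cells that derive from them, so dermal, immune and muscle cells of the same skin kept it. Wild-type mice of the same strain and age, without Cre, formed the WT group (vehicle) and the group labelled WT+ZnO NPs, 3 libraries each. They share the estimate of the spread between libraries in the fit and give a second ZnO NP comparison.

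Cdc42 is a small GTPase that sets cell polarity, junctions and the actin skeleton, and keratinocytes without it build a faulty barrier. Zinc oxide releases zinc ions as it dissolves, and cells answer free zinc through the factor MTF-1, which binds metal response elements in the promoters of metallothionein genes. Skin also holds macrophages, T cells, mast cells and Langerhans cells, hair follicles with sebaceous glands and melanocytes, a dermis of collagen and matrix, fat, and the thin skeletal muscle layer under the fat, the panniculus carnosus. In such bulk tissue a lower level of a cell type's genes can come from fewer cells of that type or from less RNA per cell, and these cannot be told apart.

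The deleted gene was read first. *Cdc42* (chromosome 4, 137319696 to 137357720, minus strand, GRCm38) stood at 415, 464 and 439.8 CPM (a gene's counts relative to the library total, scaled by edgeR's TMM factors) in KO replicates 1, 2 and 3 and at 365, 453 and 314 CPM in KO+ZnO NPs replicates 1, 2 and 3, the order used for all values. These ranges overlapped (log2 fold change -0.22, standard error 0.15, edgeR adjusted p = 0.32). The adjusted p is that of edgeR's quasi-likelihood F test, corrected by Benjamini-Hochberg over all 18822 genes, and a gene was called at a value below 0.05. All 6 libraries lay below the WT libraries, at 606, 628 and 616 CPM, as did those labelled WT+ZnO NPs (311, 350.1 and 317 CPM), which goes against that label, so that group is named by its label throughout. The KO libraries, on whose label the comparison rests, lay above those and below WT, and whether the labels of these groups are right was not tested. Total counts of the 6 libraries lay between 22104282 and 25545756. Y-linked transcripts were found in 1 of 3 libraries of each KO group (replicate 1, 235 and 234 CPM) and in all 3 labelled WT+ZnO NPs, although the study describes its *Cdc42* KO mice as female. Mitochondrial transcripts took 2.47% to 2.92% of the counts in KO and 3.93% to 4.67% in KO+ZnO NPs. By the correlation of log2 CPM, KO replicate 1 was nearest to KO+ZnO NPs replicate 1, and KO+ZnO NPs replicate 3 was nearest to a library labelled WT+ZnO NPs.

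Of the 18822 genes tested, 2759 (14.7%) were called between KO+ZnO NPs and KO, 1237 (6.57%) higher and 1522 (8.09%) lower with ZnO NPs. Large changes were mostly falls, with 426 genes lower by at least 4-fold and 107 higher by as much. The median log2 fold change over all genes was 0.0073. All KO+ZnO NPs libraries lay above all KO libraries for 3198 genes (17.0%) and below them for 3325 (17.7%). Of the 2759 called genes 2721 were separate between the groups in this way, so separation adds little to a call. The call of a gene often depended on single libraries. The count was 451 without KO replicate 2, 1055 without KO replicate 3 and 1484 without KO+ZnO NPs replicate 2, and 449, 1010 and 1306 of these were among the 2759 with the same direction. With edgeR on only the 6 libraries compared it was 571, of which 546 were shared. DESeq2's Wald test called 4236 genes on all 12 libraries and 2840 on the 6 libraries, sharing 2749 and 2194 with edgeR. Protein-coding genes called lower had a median exonic length of 4806 bases and those called higher of 2934 bases, against 4251 bases for all tested, and the part of transcript length in these results was not tested.

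Lists with few called members are set here beside the shares over all genes, and a share close to these is no result about the list. Of lists with calls in both directions, the share was 20.8% for barrier lipid enzymes, 20% for zinc genes, 13.3% for Schwann cell genes, 10.7% for interferon-stimulated genes, 10.7% for muscle atrophy regulators, 9.68% for follicle regulators and 6.06% for unfolded protein genes, against 14.7% of all genes. Of lists called in one direction, it was 12.5% for skeletal muscle and 5.71% for adipocyte genes, against 6.57% of all genes called higher. It was 22.2% for cytokines and receptors, 19.2% for NF-kB genes, 17.9% for matrix genes and 11.1% for epidermal keratins, against 8.09% of all genes called lower. Neither edgeR on only the 6 libraries nor the fit without KO replicate 2 called any member of the lists of epidermal keratins, barrier lipid enzymes, stress keratins and alarmins, zinc genes, NRF2 targets, antioxidant enzymes, interferon-stimulated genes, unfolded protein genes, skeletal muscle, muscle atrophy, adipocyte, mast cell, melanocyte, Schwann cell and hair follicle genes.

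The 12 largest falls and 12 largest rises follow, among called protein-coding genes of at least 10 CPM whose groups did not overlap, which leaves out the immunoglobulin gene segments. The falls were *Jchain*, *Sprr2a2*, *Chil3*, *Sprr2d*, *Cd209e*, *Ccr1*, *Cd300lb*, *Ccl7*, *F7*, *Sprr2a3*, *C3ar1* and *Pik3ap1*, among them plasma cell, macrophage and cornified envelope genes. *Jchain*, which joins immunoglobulin A and M chains in plasma cells, was at 46.0, 281 and 521 CPM in KO and 9.90, 2.87 and 9.84 CPM in KO+ZnO NPs (log2 fold change -5.22, standard error 0.95, edgeR adjusted p = 0.00985). *C3ar1*, the receptor for the complement fragment C3a on macrophages and other myeloid cells, was at 36.6, 108 and 71.8 CPM in KO and 8.99, 4.74 and 9.23 CPM in KO+ZnO NPs (log2 fold change -3.23, standard error 0.46, edgeR adjusted p = 0.00556). *Cd209e*, a C-type lectin gene, was at 39.7, 77.3 and 58.4 CPM in KO and 4.36, 0.907 and 6.92 CPM in KO+ZnO NPs (log2 fold change -3.84, standard error 0.79, edgeR adjusted p = 0.0143). Every KO library was above every KO+ZnO NPs library for these genes, as the naming rule requires. *Chil3*, a chitinase-like protein of alternatively activated macrophages, was at 44.8, 202 and 14.5 CPM in KO and 3.05, 4.69 and 3.44 CPM in KO+ZnO NPs (log2 fold change -4.55, standard error 0.95, edgeR adjusted p = 0.015), and 26.9% of its 50-base stretches also occur in transcripts of other genes. *Cd300lb*, an activating receptor of myeloid cells, was at 10.4, 39.9 and 35.6 CPM in KO and 2.40, 1.92 and 3.31 CPM in KO+ZnO NPs (log2 fold change -3.49, standard error 0.49, edgeR adjusted p = 0.00556). *F7*, coagulation factor VII, was at 5.91, 42.3 and 23.7 CPM in KO and 2.71, 1.81 and 2.40 CPM in KO+ZnO NPs (log2 fold change -3.37, standard error 0.66, edgeR adjusted p = 0.0123). *Pik3ap1*, an adaptor of PI3-kinase in B cells and myeloid cells, was at 16.6, 39.1 and 29.2 CPM in KO and 4.32, 1.66 and 3.05 CPM in KO+ZnO NPs (log2 fold change -3.23, standard error 0.46, edgeR adjusted p = 0.00556). KO replicate 1 was the lowest KO library for *Jchain*, *C3ar1*, *Cd209e*, *Cd300lb*, *F7* and *Pik3ap1*. Without KO replicate 2 the call of *Cd209e*, *Chil3* and *F7* was lost. Those fits gave edgeR adjusted p values of 0.0515 to 0.0564.

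**Figure D1:**
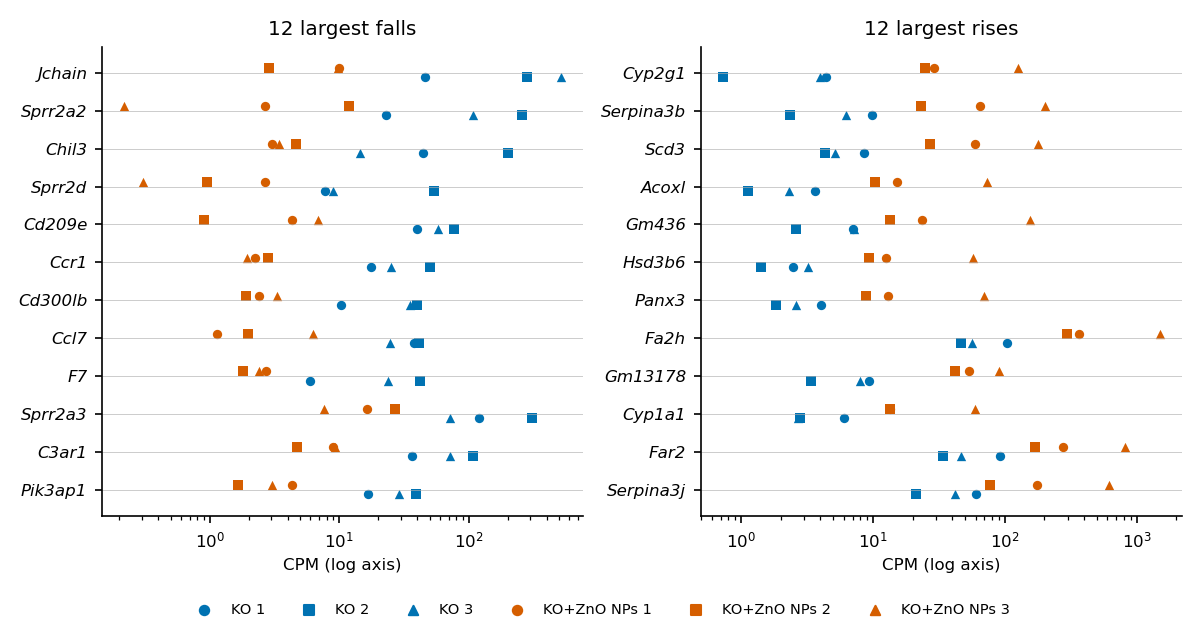
Level in CPM (log axis) of the 12 protein-coding genes with the largest falls (left) and the 12 with the largest rises (right) among called genes of at least 10 CPM whose groups did not overlap, in each KO library (blue) and KO+ZnO NPs library (orange), with the marker shape giving the replicate. The groups are separate for every gene by the naming rule, and KO+ZnO NPs replicate 3 (orange triangles) is the highest library for all 12 rises.

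The rises were *Cyp2g1*, *Serpina3b*, *Scd3*, *Acoxl*, *Gm436*, *Hsd3b6*, *Panx3*, *Fa2h*, *Gm13178*, *Cyp1a1*, *Far2* and *Serpina3j*. Among them are enzymes of lipid and steroid handling. *Scd3*, a stearoyl-CoA desaturase of sebaceous glands, was at 8.59, 4.30 and 5.15 CPM in KO and 59.7, 27.1 and 179 CPM in KO+ZnO NPs (log2 fold change 3.88, standard error 0.64, edgeR adjusted p = 0.00799). *Fa2h*, which makes 2-hydroxy fatty acids for sphingolipids and sebum, was at 104, 46.2 and 56.3 CPM in KO and 368, 299 and 1507 CPM in KO+ZnO NPs (log2 fold change 3.40, standard error 0.73, edgeR adjusted p = 0.0164). *Far2*, which reduces fatty acids to the alcohols of wax esters, was at 92.5, 34.2 and 46.8 CPM in KO and 279, 169 and 820.2 CPM in KO+ZnO NPs (log2 fold change 2.87, standard error 0.67, edgeR adjusted p = 0.0213). For these genes KO+ZnO NPs replicate 3 stood well above the other libraries. *Hsd3b6*, a steroid dehydrogenase, was at 2.47, 1.41 and 3.21 CPM in KO and 12.5, 9.27 and 57.1 CPM in KO+ZnO NPs (log2 fold change 3.48, standard error 0.72, edgeR adjusted p = 0.0148). *Acoxl*, an acyl-CoA oxidase-like gene, was at 3.66, 1.13 and 2.29 CPM in KO and 15.1, 10.3 and 73.4 CPM in KO+ZnO NPs (log2 fold change 3.81, standard error 0.84, edgeR adjusted p = 0.0178). *Cyp1a1*, the classic target of the aryl hydrocarbon receptor, was at 6.00, 2.81 and 2.69 CPM in KO and 13.5, 13.5 and 59.8 CPM in KO+ZnO NPs (log2 fold change 2.92, standard error 0.66, edgeR adjusted p = 0.0191). The other members of the list had log2 fold changes of 4.30 (*Cyp2g1*), 3.97 (*Serpina3b*), 3.52 (*Gm436*), 3.43 (*Panx3*), 3.18 (*Gm13178*) and 2.82 (*Serpina3j*), and were also highest in KO+ZnO NPs replicate 3. Leaving out KO replicate 1 ended the call of *Gm436* and *Serpina3j*, without KO replicate 2 that of *Fa2h*, *Far2*, *Hsd3b6*, *Acoxl*, *Cyp1a1*, *Cyp2g1*, *Serpina3b*, *Gm436*, *Panx3* and *Serpina3j*, without KO replicate 3 that of *Fa2h*, *Far2*, *Acoxl*, *Cyp1a1*, *Cyp2g1*, *Gm436*, *Panx3* and *Serpina3j*, and without KO+ZnO NPs replicate 3 that of *Far2*, *Gm436*, *Panx3* and *Serpina3j*. There edgeR adjusted p ranged from 0.0505 to 0.12.

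Most macrophage genes were called lower in KO+ZnO NPs. Of the macrophage genes 28 were tested, 21 were called lower, 0 higher, and the median log2 fold change was -1.9. That is 75% of the list, against 8.09% of all genes called lower. Their summed level was 3846, 7877 and 5578 CPM in KO and 1704, 2178 and 1096 CPM in KO+ZnO NPs, with no overlap. *Csf1r*, the receptor for the growth factor that macrophages need, was at 234, 398 and 282 CPM in KO and 88.9, 89.2 and 38.8 CPM in KO+ZnO NPs (log2 fold change -2.08, standard error 0.36, edgeR adjusted p = 0.0089). *Cd68*, a lysosomal protein of macrophages, was at 60.7, 194 and 129.6 CPM in KO and 23.5, 35.1 and 16.5 CPM in KO+ZnO NPs (log2 fold change -2.36, standard error 0.41, edgeR adjusted p = 0.00891). *Fcgr1*, the high-affinity receptor for immunoglobulin G, was at 12.8, 22.01 and 16.4 CPM in KO and 4.06, 4.08 and 3.18 CPM in KO+ZnO NPs (log2 fold change -2.18, standard error 0.32, edgeR adjusted p = 0.00596). The 3 KO+ZnO NPs libraries were all below the lowest KO library for each of them, and KO replicate 2 was the highest. *Fcgr3*, a low-affinity Fc receptor, had a log2 fold change of -1.96. Only 5 of the macrophage genes were called without KO replicate 2, and 6 on only the 6 libraries.

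**Figure D2:**
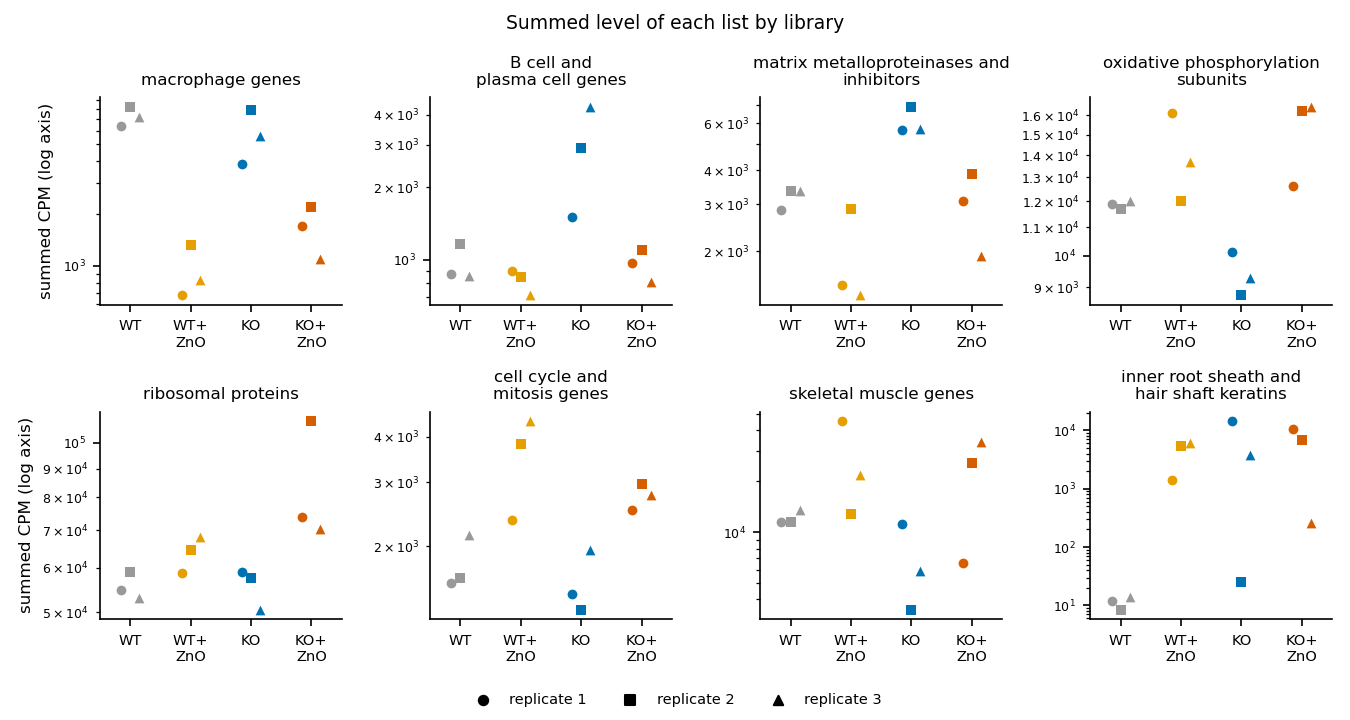
Summed level (CPM, log axis) of 8 gene lists in each of the 12 libraries, by group, with the marker shape giving the replicate. Macrophage, plasma cell and metalloproteinase sums are lower in all 3 KO+ZnO NPs libraries than in all 3 KO libraries, oxidative phosphorylation, ribosomal and cell cycle sums are higher in all 3, and the skeletal muscle and hair keratin sums of the 2 groups overlap.

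Many genes of plasma cells and T cells were also called lower. Of 21 tested B cell and plasma cell genes, 14 (66.7%, against 8.09% of all genes) were called lower and 0 higher, with a median log2 fold change of -3.2. *Igha*, the heavy chain of immunoglobulin A, was at 130.1, 707 and 1219 CPM in KO and 25.04, 6.75 and 33.3 CPM in KO+ZnO NPs (log2 fold change -4.98, standard error 1.00, edgeR adjusted p = 0.0136). *Igkc*, the constant part of the kappa light chain, was at 74.6, 548 and 906 CPM in KO and 22.3, 5.09 and 32.2 CPM in KO+ZnO NPs (log2 fold change -4.68, standard error 1.02, edgeR adjusted p = 0.017). Both had their lowest KO value in replicate 1 and still lay above all KO+ZnO NPs libraries there. *Pou2af1*, a coactivator of immunoglobulin genes, was at 1.23, 4.54 and 5.46 CPM in KO, and the KO+ZnO NPs libraries held 3, 1 and 1 counts, so no fold is given. Of 29 T cell genes, 14 (48.3%, against 8.09% of all genes) were called lower and 0 higher, with a median of -1.4. *Foxp3*, the defining factor of regulatory T cells, was at 3.53, 8.88 and 10.04 CPM in KO and 0.873, 0.252 and 0.653 CPM in KO+ZnO NPs (log2 fold change -3.64, standard error 0.58, edgeR adjusted p = 0.00755). *Klrg1*, a receptor of activated T and natural killer cells, was at 1.79, 2.21 and 2.47 CPM in KO and 0.436, 0.252 and 0.305 CPM in KO+ZnO NPs (log2 fold change -2.68, standard error 0.32, edgeR adjusted p = 0.00479). *Cd247*, the zeta chain of the T cell receptor complex, and *Il2ra*, the alpha chain of the interleukin-2 receptor, had log2 fold changes of -1.44 and -1.93. All the genes named here were separate between the groups. The B cell and plasma cell count was 4 without KO replicate 2 or KO replicate 3, 9 without KO+ZnO NPs replicate 1 or KO+ZnO NPs replicate 3 and 5 without KO+ZnO NPs replicate 2, and 2 on only the 6 libraries. The T cell count was 2 without KO replicate 2, 5 without KO replicate 3 or KO+ZnO NPs replicate 2 and 9 without KO+ZnO NPs replicate 1, and 5 on only the 6 libraries. The fit without KO replicate 2 lost the call of *Igkc*, *Cd247* and *Il2ra*. The lost calls had edgeR adjusted p values of 0.0563 to 0.0612.

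Of the antigen presentation, neutrophil and mast cell genes, those called were lower. Of 27 tested genes of antigen presentation and Langerhans cells, 11 (40.7%, against 8.09% of all genes) were called lower and 0 higher (median -1.2). *Ciita*, the master regulator of class II genes, was at 32.1, 48.5 and 49.8 CPM in KO and 10.5, 3.58 and 8.71 CPM in KO+ZnO NPs (log2 fold change -2.51, standard error 0.42, edgeR adjusted p = 0.0083). *Cd74*, the class II invariant chain, was at 1102, 1534 and 1564 CPM in KO and 531, 588 and 459.7 CPM in KO+ZnO NPs (log2 fold change -1.41, standard error 0.30, edgeR adjusted p = 0.0152). *H2-DMb1*, which helps load peptides, was at 60.9, 82.4 and 85.4 CPM in KO and 30.4, 29.8 and 31.0 CPM in KO+ZnO NPs (log2 fold change -1.33, standard error 0.20, edgeR adjusted p = 0.00574). *Cd80*, a costimulatory ligand, had a log2 fold change of -2.01. *Cd207*, which defines Langerhans cells, was not called (log2 fold change -0.52, edgeR adjusted p = 0.504). Of 24 neutrophil genes 7 (29.2%, against 8.09% of all genes) were called lower and 0 higher (median -2.6). Among them was *Itgb2*, the beta-2 integrin shared by all leukocytes, at 82.5, 304 and 224 CPM in KO and 33.1, 60.9 and 27.4 CPM in KO+ZnO NPs (log2 fold change -2.33, standard error 0.46, edgeR adjusted p = 0.0128). *Csf3r*, the G-CSF receptor, was at 16.9, 38.5 and 18.4 CPM in KO and 3.14, 2.82 and 3.18 CPM in KO+ZnO NPs (log2 fold change -3.01, standard error 0.74, edgeR adjusted p = 0.0257). The summed neutrophil level was 3074, 3190 and 1612 CPM in KO and 1703, 636 and 1220 CPM in KO+ZnO NPs, and the groups overlapped. The formyl peptide receptors were lower too, *Fpr2* with a log2 fold change of -2.93 and *Fpr1* from 0.510, 5.66 and 0.572 CPM to 1, 2 and 1 counts per library. Of 14 mast cell genes 2 (14.3%, against 8.09% of all genes) were called lower, *Il1rl1*, the interleukin-33 receptor, and *Fcer1a*, a chain of the high-affinity receptor for immunoglobulin E, at log2 fold changes of -2.95 and -2.83. The summed mast cell level was 616, 1129 and 975 CPM in KO and 219, 138 and 927 CPM in KO+ZnO NPs, where replicate 3 lay inside the KO range. The antigen presentation count was 2 without KO replicate 2 and 5 without KO replicate 3 or KO+ZnO NPs replicate 3, and 9 on only the 6 libraries. The neutrophil count was 0 without KO replicate 2, 3 without KO replicate 3, 2 without KO+ZnO NPs replicate 1 or KO+ZnO NPs replicate 2 and 1 without KO+ZnO NPs replicate 3, and 3 on only the 6 libraries. The mast cell count was 0 without KO replicate 2 and 10 without KO+ZnO NPs replicate 3, and 0 on only the 6 libraries. With KO replicate 2 left out, edgeR lost the call of *Cd74*, *Cd80*, *Itgb2*, *Csf3r*, *Fpr2*, *Il1rl1*, *Fcer1a* and *Fpr1*, without KO replicate 3 that of *Csf3r*, without KO+ZnO NPs replicate 1 that of *Fpr2* and *Fpr1*, without KO+ZnO NPs replicate 2 that of *Csf3r* and *Fpr1*, and without KO+ZnO NPs replicate 3 that of *Csf3r*, *Fpr2* and *Fpr1*. EdgeR adjusted p values were then 0.0514 to 0.0976.

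Some chemokines, cytokines and receptors were called lower and none higher, and the part that the lower immune cell genes have in this was not tested. Of 39 tested chemokines and receptors, 17 (43.6%, against 8.09% of all genes) were called lower and 0 higher (median -1.7). In 28 of them all KO+ZnO NPs libraries lay below all KO libraries, as in 17.7% of all genes. *Cxcl12*, made by fibroblasts and vessel walls, was at 517, 444 and 354 CPM in KO and 102, 175 and 98.4 CPM in KO+ZnO NPs (log2 fold change -1.81, standard error 0.28, edgeR adjusted p = 0.00747). *Ccl7*, which attracts monocytes, was at 38.0, 41.6 and 24.5 CPM in KO and 1.13, 1.97 and 6.27 CPM in KO+ZnO NPs (log2 fold change -3.47, standard error 0.97, edgeR adjusted p = 0.0389). *Ccr1*, a receptor of inflammatory chemokines on myeloid cells, was at 17.7, 50.3 and 25.01 CPM in KO and 2.23, 2.82 and 1.96 CPM in KO+ZnO NPs (log2 fold change -3.73, standard error 0.52, edgeR adjusted p = 0.00556). All of them were separate between the groups. *Ccr3*, a receptor of eosinophils, had 31, 133 and 183 counts in KO and 5, 1 and 3 in KO+ZnO NPs. Its log2 fold change of -5.13 is therefore uncertain. Of 27 cytokines and receptors 6 were lower and 0 higher (median -0.54). *Csf1*, the macrophage growth factor, was at 74.6, 108 and 79.8 CPM in KO and 25.5, 26.6 and 42.6 CPM in KO+ZnO NPs (log2 fold change -1.47, standard error 0.24, edgeR adjusted p = 0.00755). *Il1b*, the inflammasome cytokine, was at 17.3, 19.8 and 16.2 CPM in KO and 1.40, 2.27 and 2.13 CPM in KO+ZnO NPs (log2 fold change -3.20, standard error 0.78, edgeR adjusted p = 0.0248). *Tnfrsf1b*, a receptor for tumour necrosis factor, and *Il4*, a cytokine of type 2 immunity, had log2 fold changes of -2.19 and -1.15. Of 26 NF-kB genes and targets 5 were lower and 0 higher (median -0.55): *Cd40* (-1.58), *Nfkbie*, an NF-kB inhibitor (-1.89), *Cflar*, a brake on caspase 8 (-0.83), and *Bcl2a1d*, an anti-apoptotic gene that shares 79.5% of its 50-base stretches with other genes (-1.60), were the 4 with the smallest p. The chemokine count was 7 without KO replicate 2, 11 without KO replicate 3 and 10 without KO+ZnO NPs replicate 2, and 10 on only the 6 libraries. The cytokine count was 2 without KO replicate 2 or KO replicate 3 and 3 without KO+ZnO NPs replicate 2, and 3 on only the 6 libraries. The NF-kB count was 3 without KO replicate 2 or KO replicate 3 or KO+ZnO NPs replicate 1 or KO+ZnO NPs replicate 2 or KO+ZnO NPs replicate 3, and 4 on only the 6 libraries. Dropping KO replicate 1 removed the call of *Ccl7* and *Il4*, without KO replicate 2 that of *Ccl7*, *Il1b*, *Il4* and *Bcl2a1d*, without KO replicate 3 that of *Ccl7*, *Il1b*, *Il4* and *Bcl2a1d*, without KO+ZnO NPs replicate 1 that of *Ccl7*, *Il1b*, *Il4* and *Bcl2a1d*, without KO+ZnO NPs replicate 2 that of *Ccl7*, *Il1b*, *Il4* and *Bcl2a1d*, and without KO+ZnO NPs replicate 3 that of *Il1b* and *Bcl2a1d*. Those fits gave edgeR adjusted p values of 0.0533 to 0.115.

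Some genes of the dermal matrix and of the enzymes that remodel it were called lower, none of them without KO replicate 2. Of 28 matrix metalloproteinases, related proteases and inhibitors, 10 (35.7%, against 8.09% of all genes) were called lower and 0 higher (median -1.1). *Mmp12*, the elastase of macrophages, was at 297, 1388 and 1126 CPM in KO and 67.6, 312 and 81.4 CPM in KO+ZnO NPs (log2 fold change -2.61, standard error 0.66, edgeR adjusted p = 0.0278), with KO+ZnO NPs replicate 2 just above KO replicate 1. *Timp2*, an inhibitor of these proteases, was at 925, 907 and 899.9 CPM in KO and 473, 494 and 307 CPM in KO+ZnO NPs (log2 fold change -1.10, standard error 0.29, edgeR adjusted p = 0.032). *Plau*, the urokinase that activates plasminogen, and *Adam17*, which sheds cytokines from cell surfaces, had log2 fold changes of -1.14 and -0.74. Of 39 collagen and matrix genes 7 were called lower and 0 higher (median -0.84), 17.9% against the 8.09% of all genes called lower. In 25 of them all KO+ZnO NPs libraries lay below all KO libraries, as in 17.7% of all genes. *Pdgfrb*, the receptor of pericytes and fibroblasts, was at 207, 201 and 188 CPM in KO and 108, 108 and 83.2 CPM in KO+ZnO NPs (log2 fold change -0.9969, standard error 0.21, edgeR adjusted p = 0.0162). *Thbs2*, the matrix protein thrombospondin 2, was at 606, 608 and 785 CPM in KO and 279.7, 312 and 227 CPM in KO+ZnO NPs (log2 fold change -1.29, standard error 0.28, edgeR adjusted p = 0.0175). *Loxl1*, a lysyl oxidase that crosslinks elastin, and *Tnxb*, tenascin X, fell by 1.17 and 0.84 on the log2 scale. *Thbs1* (chromosome 2, 118111876 to 118127133, plus strand), thrombospondin 1, was at 388, 233 and 142 CPM in KO and 104, 130.1 and 35.2 CPM in KO+ZnO NPs (log2 fold change -1.50, standard error 0.58, edgeR adjusted p = 0.099). It was not called although every KO+ZnO NPs library lay below every KO library, while DESeq2 called it on all 12 libraries (adjusted p = 0.0357). Of 24 endothelial genes 2 (8.33%) were called, both lower, which is near the 8.09% of all genes called lower. They were *Prox1* and *Pdpn*, markers of lymphatic vessels, with log2 fold changes of -1.77 and -1.40. The metalloproteinase count was 5 without KO replicate 1 or KO+ZnO NPs replicate 1, 0 without KO replicate 2, 2 without KO replicate 3 or KO+ZnO NPs replicate 3 and 3 without KO+ZnO NPs replicate 2, and 7 on only the 6 libraries. The matrix count was 3 without KO replicate 1, 0 without KO replicate 2, 1 without KO replicate 3 or KO+ZnO NPs replicate 3 and 4 without KO+ZnO NPs replicate 2, and 2 on only the 6 libraries. The endothelial count was 1 without KO replicate 1 or KO replicate 3 or KO+ZnO NPs replicate 1 or KO+ZnO NPs replicate 2 or KO+ZnO NPs replicate 3 and 0 without KO replicate 2, and 2 on only the 6 libraries. Without KO replicate 1 the call of *Timp2*, *Loxl1*, *Tnxb* and *Prox1* was lost, without KO replicate 2 that of *Mmp12*, *Timp2*, *Plau*, *Adam17*, *Pdgfrb*, *Thbs2*, *Loxl1*, *Tnxb*, *Prox1* and *Pdpn*, without KO replicate 3 that of *Mmp12*, *Timp2*, *Thbs2*, *Loxl1*, *Tnxb* and *Prox1*, without KO+ZnO NPs replicate 1 that of *Mmp12* and *Prox1*, without KO+ZnO NPs replicate 2 that of *Timp2*, *Plau*, *Tnxb*, *Prox1* and *Pdpn*, and without KO+ZnO NPs replicate 3 that of *Mmp12*, *Timp2*, *Thbs2*, *Loxl1*, *Tnxb* and *Prox1*. There edgeR adjusted p ranged from 0.0502 to 0.0977.

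**Figure D3:**
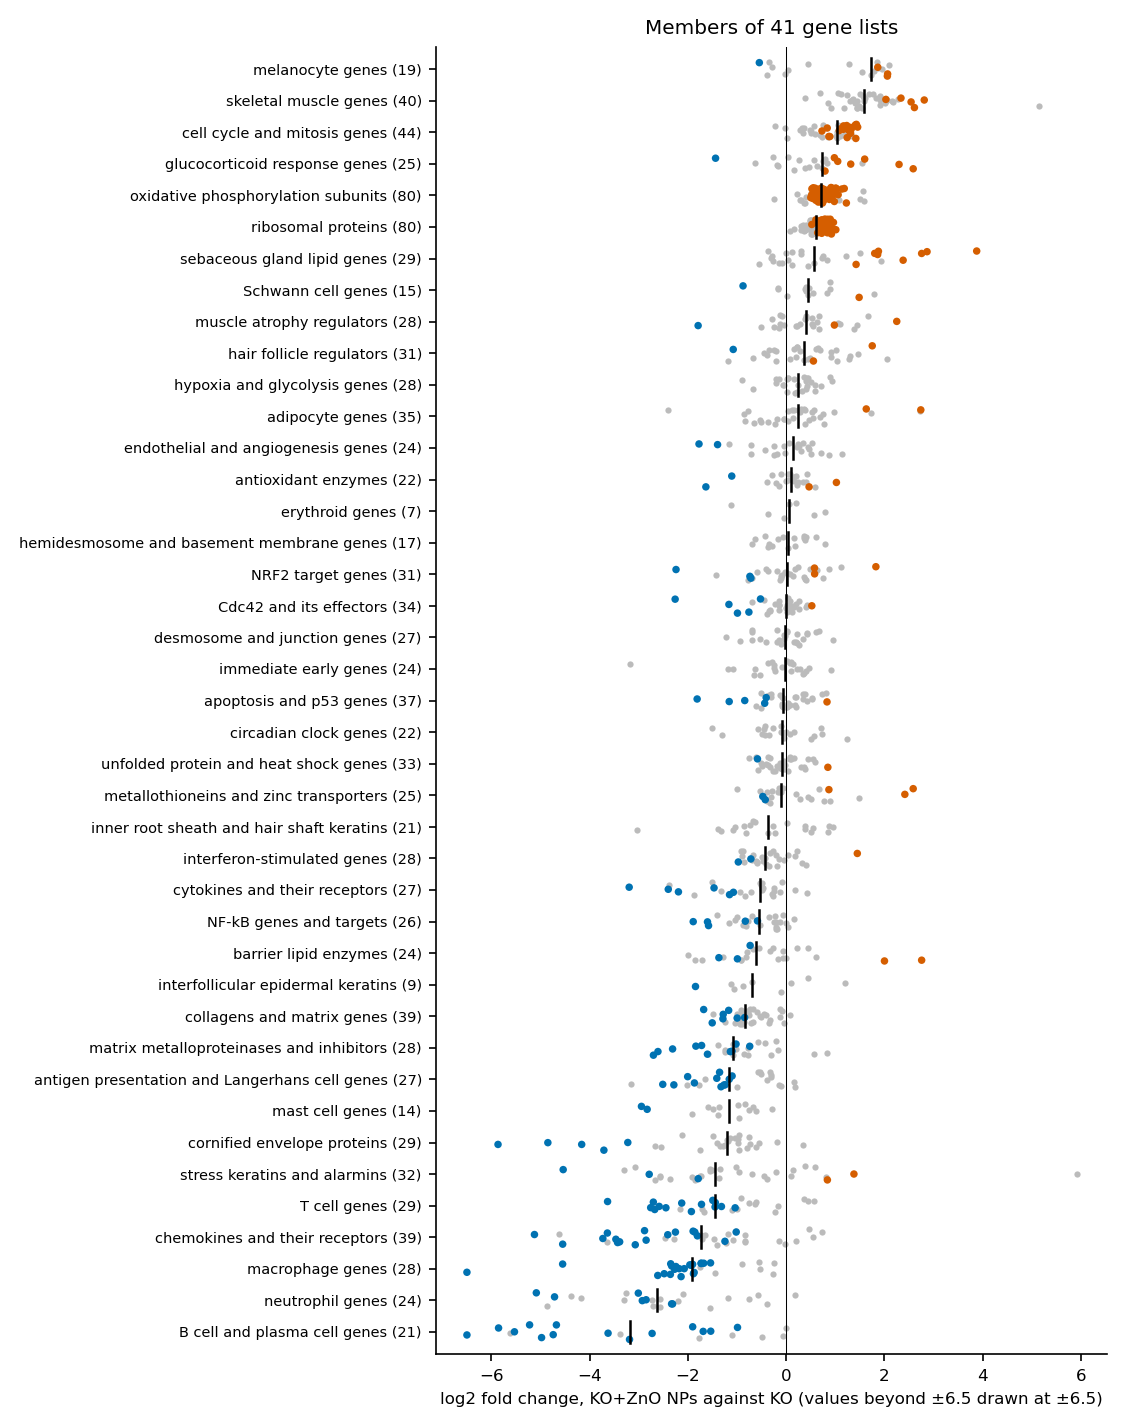
Log2 fold change of KO+ZnO NPs against KO for each tested member of 41 gene lists (number tested in brackets), ordered by the list's median (black bar), with called members in blue (lower) and orange (higher) and the others in grey. Immune, chemokine and cornified envelope lists lie at the bottom, and melanocyte, skeletal muscle, cell cycle, oxidative phosphorylation and ribosomal lists at the top.

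Small proline-rich and late cornified envelope genes build the cornified envelope of the epidermis and are raised in damaged skin. Of 29 tested cornified envelope genes 5 were called lower and 0 higher, 17.2% against the 8.09% of all genes called lower (median -1.2). *Sprr2d* was at 7.78, 54.0 and 8.94 CPM in KO and 2.66, 0.958 and 0.305 CPM in KO+ZnO NPs (log2 fold change -4.16, standard error 0.92, edgeR adjusted p = 0.0175). *Sprr2h* was at 13.3, 27.4 and 7.71 CPM in KO and 3.10, 1.76 and 0.305 CPM in KO+ZnO NPs (log2 fold change -3.22, standard error 0.72, edgeR adjusted p = 0.0187). *Lce3b* stood at 0.978, 6.87 and 0.969 CPM in KO and at 2, 0 and 1 counts per KO+ZnO NPs library, so no fold is given, and *Lce3f* had a log2 fold change of -3.71. KO replicate 2 had the highest value of all of these. *Sprr2a3* was at 121, 309 and 71.9 CPM in KO and 16.4, 26.9 and 7.71 CPM in KO+ZnO NPs (log2 fold change -3.30, standard error 0.62, edgeR adjusted p = 0.011). *Sprr2a2*, on the border of the threshold, was at 22.8, 258 and 107 CPM in KO and 2.66, 11.9 and 0.218 CPM in KO+ZnO NPs (log2 fold change -4.73, standard error 1.43, edgeR adjusted p = 0.05). Since 61.1% and 96.5% of the 50-base stretches of *Sprr2a3* and *Sprr2a2* occur in other genes, as do 48.0% of those of *Lce3f*, their counts are uncertain. The summed envelope level was 9575, 14330 and 7555 CPM in KO and 10210, 2750 and 2185 CPM in KO+ZnO NPs, replicate 1 of which lay inside the KO range. The count was 1 without KO replicate 2 or KO+ZnO NPs replicate 2, 3 without KO replicate 3 or KO+ZnO NPs replicate 3 and 16 without KO+ZnO NPs replicate 1, and 0 on only the 6 libraries. Leaving out KO replicate 2 ended the call of *Sprr2d*, *Sprr2h*, *Lce3f* and *Sprr2a2*, without KO replicate 3 that of *Lce3f* and *Sprr2a2*, without KO+ZnO NPs replicate 1 that of *Sprr2a2*, without KO+ZnO NPs replicate 2 that of *Sprr2d*, *Sprr2h*, *Lce3f* and *Sprr2a2*, and without KO+ZnO NPs replicate 3 that of *Lce3f* and *Sprr2a2*. The lost calls had edgeR adjusted p values of 0.0512 to 0.159.

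In the other epidermal groups, few members were called by edgeR. Of 9 epidermal keratins only *Krt80*, a keratin of the upper layers, was called, at 295, 339 and 173 CPM in KO and 134, 48.6 and 40.9 CPM in KO+ZnO NPs (log2 fold change -1.85, standard error 0.43, edgeR adjusted p = 0.0212). Of 32 stress keratins and alarmins 3 were lower and 2 higher (median -1.4), 15.6% against the 14.7% of all genes. No member was called higher without KO replicate 3 or KO+ZnO NPs replicate 2, and without KO+ZnO NPs replicate 1 the count of lower members was 8. *Il33*, an alarmin of damaged epithelium, was at 44.2, 87.0 and 35.1 CPM in KO and 12.4, 19.0 and 16.7 CPM in KO+ZnO NPs (log2 fold change -1.79, standard error 0.42, edgeR adjusted p = 0.0213). *Slpi*, a protease inhibitor of skin defence, was at 35.8, 91.7 and 137 CPM in KO and 14.1, 19.2 and 5.18 CPM in KO+ZnO NPs (log2 fold change -2.79, standard error 0.65, edgeR adjusted p = 0.0208). Opposite to them, *Defb6*, a beta-defensin, was at 114, 77.1 and 54.7 CPM in KO and 187, 205 and 248 CPM in KO+ZnO NPs (log2 fold change 1.38, standard error 0.36, edgeR adjusted p = 0.0295), and *S100a10* had a log2 fold change of 0.84. Of 24 barrier lipid enzymes 3 were lower and 2 higher. The ceramide genes *Ugcg* and *Elovl1* fell by 1.37 and 0.99 on the log2 scale, while *Cers4*, a ceramide synthase of sebaceous glands, was at 106, 52.0 and 66.1 CPM in KO and 304, 268 and 947 CPM in KO+ZnO NPs (log2 fold change 2.76, standard error 0.56, edgeR adjusted p = 0.0139). None of the 27 desmosome and junction genes and none of the 17 hemidesmosome and basement membrane genes was called by edgeR, and the most abundant of each, *Dsp* and *Col17a1*, had log2 fold changes of -0.14 and 0.38. At an unadjusted p below 0.05 these counts were 4 and 3, and DESeq2 on all 12 libraries called 1 and 0. Without KO+ZnO NPs replicate 1, 4 keratins and 11 barrier lipid enzymes were called lower, and without KO+ZnO NPs replicate 2 or KO+ZnO NPs replicate 3 none. Barrier lipid enzymes called higher numbered 1 without KO replicate 1 or KO+ZnO NPs replicate 3 and 0 without KO replicate 3. The fit without KO replicate 2 lost the call of *Krt80*, *Il33*, *Slpi*, *Defb6*, *S100a10*, *Ugcg*, *Elovl1* and *Cers4*, without KO replicate 3 that of *Slpi*, *Defb6*, *S100a10* and *Cers4*, without KO+ZnO NPs replicate 2 that of *Krt80*, *Defb6*, *S100a10*, *Ugcg* and *Elovl1*, and without KO+ZnO NPs replicate 3 that of *Krt80*, *Defb6*, *Ugcg* and *Elovl1*. EdgeR adjusted p values were then 0.0517 to 0.109.

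The genes of zinc handling read here were those of the metallothioneins, small cysteine-rich proteins that bind zinc, and of the zinc transporters. *Mt1* was at 183, 167 and 125 CPM in KO and 779, 1394 and 361 CPM in KO+ZnO NPs (log2 fold change 2.42, standard error 0.49, edgeR adjusted p = 0.0134). *Mt2* was at 1.57, 1.37 and 0.793 CPM in KO and 6.33, 13.1 and 3.14 CPM in KO+ZnO NPs (log2 fold change 2.59, standard error 0.61, edgeR adjusted p = 0.0223). Each KO+ZnO NPs library was above each KO library for both genes, with replicate 2 highest and replicate 3 lowest. *Mt1* lies on chromosome 8, 94179082 to 94180327, plus strand, and *Mt2* on chromosome 8, 94172664 to 94173568, plus strand, where it overlaps the annotated gene *Gm45774*. Of the 25 tested members 3 were called higher and 2 lower (median -0.099), and without KO replicate 3 none in either direction. *Slc30a1*, the zinc exporter that MTF-1 also controls, was not called (log2 fold change 0.27, edgeR adjusted p = 0.648). *Slc39a11* and *Slc39a13*, zinc importers of the ZIP family, had log2 fold changes of 0.87 and -0.47. With KO replicate 1 left out, edgeR lost the call of *Slc39a11*, without KO replicate 2 that of *Mt1*, *Mt2*, *Slc39a11* and *Slc39a13*, without KO replicate 3 that of *Mt1*, *Mt2*, *Slc39a11* and *Slc39a13*, without KO+ZnO NPs replicate 2 that of *Mt2* and *Slc39a13*, and without KO+ZnO NPs replicate 3 that of *Slc39a11*. Those fits gave edgeR adjusted p values of 0.0517 to 0.11.

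The promoters of *Mt1* and *Mt2*, the metallothionein genes that rose, are shown from 250 bases before to 50 bases after the gene start (RefSeq, GRCm38.p6, plus strand), with matches of the metal response element core, TGCACNC or TGCGCNC on either strand, in capitals.
Mt1, chr8:94178839-94179138: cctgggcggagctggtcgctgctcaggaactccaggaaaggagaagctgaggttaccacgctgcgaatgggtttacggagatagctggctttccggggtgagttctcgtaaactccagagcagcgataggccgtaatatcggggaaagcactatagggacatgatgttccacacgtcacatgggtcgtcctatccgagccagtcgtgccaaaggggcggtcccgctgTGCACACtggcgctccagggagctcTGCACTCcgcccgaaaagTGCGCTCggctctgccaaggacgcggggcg
Mt2, chr8:94172368-94172667: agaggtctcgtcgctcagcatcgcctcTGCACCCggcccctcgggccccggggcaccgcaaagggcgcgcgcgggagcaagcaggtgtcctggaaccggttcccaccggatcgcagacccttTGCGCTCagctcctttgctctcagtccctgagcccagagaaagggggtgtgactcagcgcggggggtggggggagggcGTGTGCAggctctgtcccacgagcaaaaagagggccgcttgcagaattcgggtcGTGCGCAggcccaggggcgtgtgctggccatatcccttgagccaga
The *Mt1* window held 3 matches, the *Mt2* window 4 and that of *Slc30a1* (chr1:191906531-191906830) 2. A match was found in 28.2% of the promoter windows of 27025 genes, and 3 or more matches in 2.27%. A match is a description of these letters and not a measured site. Whether zinc or another signal raised *Mt1* and *Mt2* was not tested.

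Some sebaceous gland lipid genes were higher. Of 29 tested members 8 (27.6%, against 6.57% of all genes) were called higher and 0 lower (median 0.57). *Elovl3*, which lengthens the fatty acids of sebum, was at 53.8, 15.6 and 26.9 CPM in KO and 161, 132 and 359 CPM in KO+ZnO NPs (log2 fold change 2.76, standard error 0.62, edgeR adjusted p = 0.0194). *Elovl5* was at 76.8, 61.3 and 78.8 CPM in KO and 181, 164 and 412 CPM in KO+ZnO NPs (log2 fold change 1.80, standard error 0.42, edgeR adjusted p = 0.0206). All KO+ZnO NPs libraries were above all KO libraries for these genes. The summed sebaceous level did not separate the groups, at 10290, 6484 and 11620 CPM in KO and 14420, 5023 and 23230 CPM in KO+ZnO NPs. Of 35 adipocyte genes 2 were higher and 0 lower: *Cidea*, a lipid droplet protein that sebocytes also express, at 25.7, 12.3 and 14.7 CPM in KO and 59.9, 47.2 and 246 CPM in KO+ZnO NPs (log2 fold change 2.74, standard error 0.64, edgeR adjusted p = 0.0208). *Mgll*, a lipase of monoacylglycerols, was at 353, 142 and 278 CPM in KO and 614, 465 and 1315 CPM in KO+ZnO NPs (log2 fold change 1.63, standard error 0.44, edgeR adjusted p = 0.0337). The sebaceous count was 2 without KO replicate 2 or KO replicate 3 and 4 without KO+ZnO NPs replicate 3, and 2 on only the 6 libraries. The adipocyte count was 0 without KO replicate 2 or KO replicate 3, 6 without KO+ZnO NPs replicate 2 and 1 without KO+ZnO NPs replicate 3, and 0 on only the 6 libraries. Dropping KO replicate 2 removed the call of *Elovl3*, *Elovl5*, *Cidea* and *Mgll*, without KO replicate 3 that of *Elovl3*, *Elovl5*, *Cidea* and *Mgll*, and without KO+ZnO NPs replicate 3 that of *Mgll*. There edgeR adjusted p ranged from 0.0613 to 0.109.

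Most oxidative phosphorylation genes and some ribosomal protein genes were called higher, by small amounts. Of 80 tested nuclear subunits of the respiratory chain 64 (80%, against 6.57% of all genes) were called higher and 0 lower (median 0.71). For 72 all KO+ZnO NPs libraries lay above all KO libraries, as for 17.0% of all genes. Their summed level was 10110, 8752 and 9288 CPM in KO and 12630, 16230 and 16460 CPM in KO+ZnO NPs. Skeletal muscle genes, whose tissue is rich in mitochondria, summed to 11110, 3485 and 5917 CPM and 6542, 25710 and 33840 CPM in the same libraries, and KO+ZnO NPs replicate 1, inside the KO range for muscle, was above all KO libraries for the respiratory chain. The part of muscle in these values was not tested. *Ndufc2*, of complex I, was at 43.1, 40.2 and 45.9 CPM in KO and 70.5, 102 and 82.7 CPM in KO+ZnO NPs (log2 fold change 0.98, standard error 0.14, edgeR adjusted p = 0.00573). *Cox7b*, of complex IV, was at 135, 115 and 131 CPM in KO and 233, 333 and 301 CPM in KO+ZnO NPs (log2 fold change 1.18, standard error 0.19, edgeR adjusted p = 0.00754). *Atp5e*, of the ATP synthase, was at 128, 101.3 and 108 CPM in KO and 193, 314 and 282 CPM in KO+ZnO NPs (log2 fold change 1.23, standard error 0.20, edgeR adjusted p = 0.00755). *Cox5b*, also of complex IV, had a log2 fold change of 0.92. Of 80 cytosolic ribosomal protein genes 38 (47.5%, against 6.57% of all genes) were called higher and 0 lower (median 0.62). *Rpl35a* was at 361, 346 and 330.2 CPM in KO and 592, 878 and 559 CPM in KO+ZnO NPs (log2 fold change 0.97, standard error 0.18, edgeR adjusted p = 0.00996). *Rps19* was at 765, 747 and 607 CPM in KO and 1173, 1644 and 1147 CPM in KO+ZnO NPs (log2 fold change 0.90, standard error 0.19, edgeR adjusted p = 0.0141). KO+ZnO NPs replicate 2, the library with the lowest TMM factor (0.898), had the highest value of all of these. *Rpl38* and *Rpl35* had log2 fold changes of 0.77 and 1.01. Without TMM factors, with library sizes only, the medians were 0.66 for oxidative phosphorylation and 0.56 for ribosomal genes, with -0.037 for all genes. Ribosomal protein genes have many pseudogene copies, and 27.4% and 30.2% of the 50-base stretches of *Rpl38* and *Rpl35* occur in other genes. The respiratory chain count was 14 without KO replicate 2 and 30 without KO replicate 3, and 15 on only the 6 libraries. The ribosomal count was 22 without KO replicate 1, 2 without KO replicate 2 or KO replicate 3 and 18 without KO+ZnO NPs replicate 2, and 0 on only the 6 libraries. Without KO replicate 2 the call of *Rps19*, *Rpl38* and *Rpl35* was lost and without KO replicate 3 that of *Rps19* and *Rpl35*. The lost calls had edgeR adjusted p values of 0.0542 to 0.0628.

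A number of cell division genes were called higher and none lower. Of 44 tested cell cycle and mitosis genes 19 (43.2%, against 6.57% of all genes) were called higher and 0 lower (median 1). For 37 all KO+ZnO NPs libraries lay above all KO libraries, as for 17.0% of all genes. *Tyms*, thymidylate synthase, was at 16.8, 14.3 and 18.8 CPM in KO and 28.1, 41.7 and 42.2 CPM in KO+ZnO NPs (log2 fold change 1.16, standard error 0.20, edgeR adjusted p = 0.00837). *Tk1*, thymidine kinase of S phase, was at 19.99, 23.0 and 28.4 CPM in KO and 46.0, 54.2 and 53.4 CPM in KO+ZnO NPs (log2 fold change 1.11, standard error 0.24, edgeR adjusted p = 0.0162). *Ndc80*, of the kinetochore, was at 5.44, 4.94 and 10.3 CPM in KO and 17.7, 19.9 and 18.1 CPM in KO+ZnO NPs (log2 fold change 1.43, standard error 0.32, edgeR adjusted p = 0.0189). *Mcm7*, of the replicative helicase, was at 38.2, 39.5 and 48.1 CPM in KO and 74.6, 81.8 and 76.7 CPM in KO+ZnO NPs (log2 fold change 0.89, standard error 0.21, edgeR adjusted p = 0.0203). The groups were separate for each, and the KO+ZnO NPs libraries lay close together for *Ndc80* and *Mcm7*. The summed level was 1482, 1343 and 1961 CPM in KO and 2516, 2958 and 2763 CPM in KO+ZnO NPs. The count was 2 without KO replicate 1, 1 without KO replicate 2, 3 without KO+ZnO NPs replicate 2 and 7 without KO+ZnO NPs replicate 3, and 7 on only the 6 libraries. It was 3 without both replicates 1, the libraries with Y-linked transcripts, and 16 with Y-linked transcripts as a covariate. Leaving out KO replicate 1 ended the call of *Ndc80* and *Mcm7*, without KO replicate 2 that of *Tk1*, *Ndc80* and *Mcm7*, and without KO+ZnO NPs replicate 2 that of *Mcm7*. EdgeR adjusted p values were then 0.0502 to 0.081.

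Some genes that glucocorticoids induce were called higher. Of 25 tested members 7 were called higher and 1 lower (median 0.73), 32% against the 14.7% of all genes. *Pdk4* (chromosome 6, 5483351 to 5496309, minus strand), a kinase that shuts pyruvate out of the mitochondria, was at 70.7, 41.3 and 81.1 CPM in KO and 242, 332 and 377 CPM in KO+ZnO NPs (log2 fold change 2.30, standard error 0.31, edgeR adjusted p = 0.00495). *Fkbp5* (chromosome 17, 28399094 to 28517527, minus strand), a cochaperone that restrains the glucocorticoid receptor, was at 175, 155 and 83.8 CPM in KO and 342, 345 and 343 CPM in KO+ZnO NPs (log2 fold change 1.32, standard error 0.28, edgeR adjusted p = 0.0167), with nearly equal KO+ZnO NPs libraries. *Ddit4*, an inhibitor of mTORC1, was at 133, 142 and 106 CPM in KO and 350.2, 606 and 196 CPM in KO+ZnO NPs (log2 fold change 1.60, standard error 0.32, edgeR adjusted p = 0.0135). In all of these the groups were separate. *Gadd45g* and *Sesn1*, genes of stress arrest, had log2 fold changes of 1.05 and 0.79. The receptor gene itself, *Nr3c1*, was not called (log2 fold change -0.27, edgeR adjusted p = 0.376). The letters ACANNNTGT, the spacing at which the glucocorticoid receptor binds as a pair, occurred in the promoter windows of 4 of 21 list members with a window (19.0%) and of 7.90% of all genes. None of the 22 clock genes was called by edgeR (2 at an unadjusted p below 0.05, 1 by DESeq2 on all 12 libraries), and *Tef* and *Csnk1d*, the most abundant of them, had log2 fold changes of -0.35 and 0.086. The E-box CACGTG was found in 5 of 18 clock gene windows (27.8%) and in 8.09% of all genes, and the D-box TTANNTAA in 3 (16.7%) and in 6.93%. The glucocorticoid count was 2 without KO replicate 2 and 3 without KO replicate 3, and 1 on only the 6 libraries. The fit without KO replicate 2 lost the call of *Fkbp5*, *Ddit4* and *Gadd45g* and without KO replicate 3 that of *Ddit4* and *Sesn1*. Those fits gave edgeR adjusted p values of 0.0513 to 0.0648.

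**Figure D4:**
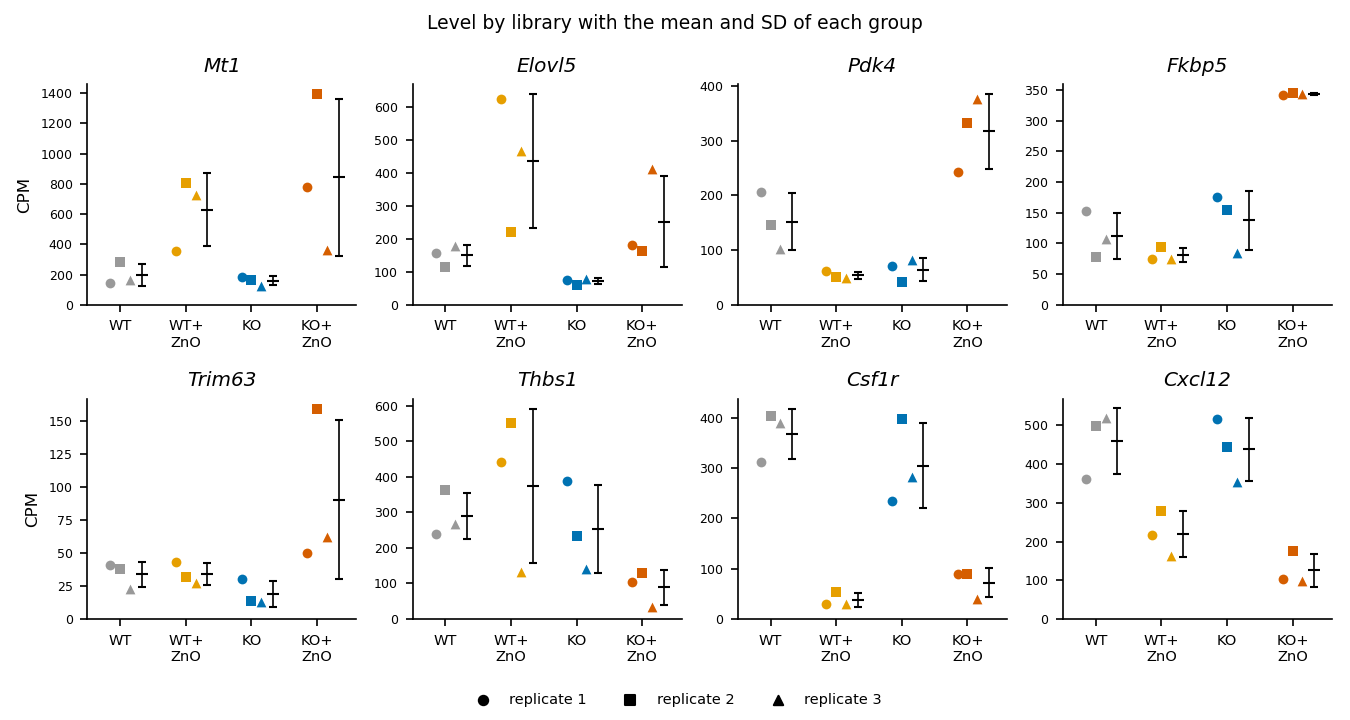
Level in CPM of 8 genes in each library of the 4 groups, with the marker shape giving the replicate and black bars the mean and SD of each group (n = 3). *Mt1*, *Elovl5*, *Pdk4*, *Fkbp5* and *Trim63* are higher in every KO+ZnO NPs library than in every KO library, and *Thbs1*, *Csf1r* and *Cxcl12* are lower.

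Skeletal muscle genes varied widely among the libraries of each group. Their summed level, given above with the respiratory chain, was highest in KO+ZnO NPs replicates 2 and 3 and overlapped between the groups. Of 40 tested members 5 were called higher and 0 lower (median 1.6), among them *Mylpf*, a fast myosin light chain, at 278, 85.8 and 169 CPM in KO and 281, 936 and 1476 CPM in KO+ZnO NPs (log2 fold change 2.34, standard error 0.66, edgeR adjusted p = 0.04). *Myl1*, *Csrp3* and *Tnnc1*, of the contractile apparatus, had log2 fold changes of 2.55, 2.81 and 2.03. The value of *Tnnc1* rests on 2, 4 and 6 counts in KO and 12, 19 and 15 in KO+ZnO NPs. The count was 3 without KO replicate 1, 0 without KO replicate 2 or KO+ZnO NPs replicate 2, 1 without KO replicate 3, 25 without KO+ZnO NPs replicate 1 and 2 without KO+ZnO NPs replicate 3, and 0 on only the 6 libraries, and without both replicates 1, the libraries with Y-linked transcripts, it was 34. With Y-linked transcripts as a covariate it was 1. *Trim63* (chromosome 4, 134315120 to 134329629, plus strand), the muscle ubiquitin ligase that breaks down sarcomere proteins in atrophy, was at 30.3, 13.9 and 12.7 CPM in KO and 49.6, 159 and 62.4 CPM in KO+ZnO NPs (log2 fold change 2.25, standard error 0.48, edgeR adjusted p = 0.0162), with no overlap. The part of muscle in the level of *Trim63* was not tested. Of 28 atrophy regulators 2 were called higher and 1 lower, the others being *Cebpb* (0.98) and *Ctsl*, the lysosomal protease cathepsin L (-1.79). With KO replicate 1 left out, edgeR lost the call of *Myl1*, *Csrp3* and *Tnnc1*, without KO replicate 2 that of *Mylpf*, *Myl1*, *Csrp3*, *Tnnc1*, *Trim63*, *Cebpb* and *Ctsl*, without KO replicate 3 that of *Mylpf*, *Myl1*, *Csrp3*, *Trim63* and *Cebpb*, without KO+ZnO NPs replicate 2 that of *Mylpf*, *Myl1*, *Csrp3*, *Tnnc1*, *Cebpb* and *Ctsl*, and without KO+ZnO NPs replicate 3 that of *Mylpf*, *Myl1* and *Cebpb*. There edgeR adjusted p ranged from 0.0553 to 0.129.

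Melanocyte genes differed in how many were called between the tests. Of 19 tested members 11 had all KO+ZnO NPs libraries above all KO libraries, as had 17.0% of all genes. Of the list 3 were called higher and 1 lower, 21.1% against 14.7% of all genes, and the median log2 fold change was 1.7. *Mc1r*, the receptor for melanocyte-stimulating hormone, was at 0.638, 0.763 and 1.45 CPM in KO and 3.36, 2.32 and 4.75 CPM in KO+ZnO NPs (log2 fold change 1.87, standard error 0.49, edgeR adjusted p = 0.0312). *Slc45a2*, a transporter of melanosomes, was at 1.06, 0.683 and 2.69 CPM in KO and 5.67, 7.51 and 5.40 CPM in KO+ZnO NPs (log2 fold change 2.07, standard error 0.60, edgeR adjusted p = 0.0427). *Edn3*, an endothelin that melanocytes depend on, was at 1.19, 1.25 and 2.29 CPM in KO and 4.28, 9.58 and 5.92 CPM in KO+ZnO NPs (log2 fold change 2.06, standard error 0.39, edgeR adjusted p = 0.0109). These levels were low in every library. *Mitf*, the lineage factor that is also expressed outside melanocytes, was lower, at 43.0, 39.8 and 40.0 CPM in KO and 30.6, 21.97 and 31.4 CPM in KO+ZnO NPs (log2 fold change -0.55, standard error 0.14, edgeR adjusted p = 0.0297). Hair keratins, the products of growing hair follicles in which these cells make pigment, summed to 14380, 25.2 and 3833 CPM in KO and 10410, 6897 and 262 CPM in KO+ZnO NPs, so that libraries of each group differed widely and the groups overlapped, and their part in the melanocyte values was not tested. None of the 21 hair keratin genes was called by edgeR (0 at an unadjusted p below 0.05, 0 by DESeq2 on all 12 libraries), as *Tchh* (trichohyalin, log2 fold change -0.22) and *Krt71* (0.012) show. Of 31 follicle regulators *Lgr6*, a stem cell receptor, and *Wnt10a*, a follicle signal, were higher (1.75 and 0.56) and *Fgf7*, a growth factor of the dermal papilla, lower (-1.08). DESeq2 called 10 melanocyte members higher on all 12 libraries and 9 on the 6 libraries. With edgeR the count of higher members was 1 without KO replicate 1, 0 without KO replicate 2 and 8 without KO replicate 3, and 0 on only the 6 libraries. Dropping KO replicate 1 removed the call of *Mc1r*, *Slc45a2*, *Mitf*, *Lgr6* and *Wnt10a*, without KO replicate 2 that of *Mc1r*, *Slc45a2*, *Edn3*, *Mitf*, *Lgr6*, *Wnt10a* and *Fgf7*, without KO replicate 3 that of *Mitf*, *Lgr6* and *Wnt10a*, without KO+ZnO NPs replicate 1 that of *Slc45a2* and *Wnt10a*, without KO+ZnO NPs replicate 2 that of *Slc45a2*, *Mitf* and *Wnt10a*, and without KO+ZnO NPs replicate 3 that of *Mc1r*, *Slc45a2* and *Wnt10a*. The lost calls had edgeR adjusted p values of 0.0504 to 0.153.

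Genes of oxidative stress and cell death were called at shares close to that of all genes (14.7%), at 19.4% for NRF2 targets, 18.2% for antioxidant enzymes and 16.2% for apoptosis and p53 genes, so the values describe single genes. Of 31 NRF2 targets 3 were called higher and 3 lower (median 0.027). *Gclm*, of glutathione synthesis, was at 53.1, 50.4 and 43.0 CPM in KO and 68.97, 77.6 and 72.5 CPM in KO+ZnO NPs (log2 fold change 0.58, standard error 0.13, edgeR adjusted p = 0.0169). *Slc7a11*, the cystine importer, was at 20.9, 54.7 and 30.6 CPM in KO and 9.64, 10.1 and 2.74 CPM in KO+ZnO NPs (log2 fold change -2.24, standard error 0.51, edgeR adjusted p = 0.0201). *Gstp1* and *Aldh3a1*, detoxifying enzymes, had log2 fold changes of 0.58 and 1.83. Of 22 antioxidant enzymes 2 were higher, *Gpx4* (1.02) and *Txn2* (0.47), and 2 lower, *Sod3*, the extracellular superoxide dismutase (-1.11), and *Glrx* (-1.63). Other genes share 33.7% and 34.7% of the 50-base stretches of *Gstp1* and *Gpx4*. Of 37 apoptosis and p53 genes 5 were lower and 1 higher (median -0.064). *Bid*, which links death receptors to mitochondria, was at 14.4, 19.1 and 17.4 CPM in KO and 7.42, 7.01 and 8.36 CPM in KO+ZnO NPs (log2 fold change -1.16, standard error 0.17, edgeR adjusted p = 0.00602). *Tnfsf10*, the death ligand TRAIL, was at 17.3, 24.3 and 24.8 CPM in KO and 4.36, 3.98 and 10.5 CPM in KO+ZnO NPs (log2 fold change -1.81, standard error 0.34, edgeR adjusted p = 0.0108). *Apaf1*, the scaffold of the apoptosome, had a log2 fold change of -0.84 and *Cycs*, cytochrome c, one of 0.83. Of 33 unfolded protein and heat shock genes, *Hspe1*, a mitochondrial chaperonin, was higher (0.85) and *Eif2ak3*, the stress kinase PERK, lower (-0.58). None of the 28 hypoxia and glycolysis genes was called (4 at an unadjusted p below 0.05, 0 by DESeq2 on all 12 libraries), with *Aldoa* at 0.90 and *Pkm* at 0.18. The apoptosis count of lower members was 3 without KO replicate 1 or KO+ZnO NPs replicate 2 or KO+ZnO NPs replicate 3 and 2 without KO replicate 2 or KO replicate 3, and 1 on only the 6 libraries. NRF2 targets called higher numbered 1 without KO replicate 1, 0 without KO replicate 3 and 5 without KO+ZnO NPs replicate 2, and those called lower 1 without KO replicate 3, KO+ZnO NPs replicate 2 or KO+ZnO NPs replicate 3. Antioxidant enzymes called higher numbered 1 without KO replicate 1 and 0 without KO replicate 3, and those called lower 1 without KO replicate 1 and 0 without KO+ZnO NPs replicate 2 or KO+ZnO NPs replicate 3. Without KO replicate 1 the call of *Gstp1*, *Aldh3a1*, *Txn2* and *Sod3* was lost, without KO replicate 2 that of *Gclm*, *Slc7a11*, *Gstp1*, *Aldh3a1*, *Gpx4*, *Txn2*, *Sod3*, *Glrx*, *Apaf1*, *Cycs*, *Hspe1* and *Eif2ak3*, without KO replicate 3 that of *Gclm*, *Gstp1*, *Aldh3a1*, *Gpx4*, *Txn2*, *Apaf1*, *Cycs* and *Eif2ak3*, without KO+ZnO NPs replicate 2 that of *Gstp1*, *Txn2*, *Sod3*, *Glrx*, *Apaf1*, *Cycs* and *Eif2ak3*, and without KO+ZnO NPs replicate 3 that of *Aldh3a1*, *Txn2*, *Sod3*, *Glrx* and *Apaf1*. EdgeR adjusted p values were then 0.0505 to 0.131.

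In the Cdc42 pathway 5 of 34 tested genes were called lower and 1 higher, 17.6% against the 14.7% of all genes (median 2e-04). *Was*, the effector that drives actin assembly in blood cells, was at 12.6, 27.2 and 22.9 CPM in KO and 5.67, 3.73 and 3.66 CPM in KO+ZnO NPs (log2 fold change -2.26, standard error 0.36, edgeR adjusted p = 0.00753). *Wipf1*, its binding partner, was at 60.6, 80.0 and 75.2 CPM in KO and 26.6, 43.8 and 25.9 CPM in KO+ZnO NPs (log2 fold change -1.17, standard error 0.25, edgeR adjusted p = 0.0153). *Arhgef7*, an exchange factor for Rac and Cdc42, had a log2 fold change of -0.52. *Tnk2*, a kinase that Cdc42 activates, was at 101.4, 95.1 and 82.5 CPM in KO and 128, 141 and 132 CPM in KO+ZnO NPs (log2 fold change 0.52, standard error 0.11, edgeR adjusted p = 0.0169). *Was* moved with the macrophage genes described above, and the part of immune cells in its level was not tested. The count was 1 without KO replicate 2, and 1 on only the 6 libraries. Of 15 Schwann cell genes *Gfra3*, a receptor for artemin, was higher (1.49) and *Scn7a*, a sodium channel, lower (-0.88), and none of the 7 erythroid genes was called (0 at an unadjusted p below 0.05, 0 by DESeq2 on all 12 libraries). The most abundant erythroid genes, *Hbb-bs* and *Hba-a1*, had log2 fold changes of 0.58 and -0.039, and without KO+ZnO NPs replicate 2 *Hba-a1* was called lower (log2 fold change -1.78, edgeR adjusted p = 0.0499). Leaving out KO replicate 1 ended the call of *Gfra3*, without KO replicate 2 that of *Wipf1*, *Arhgef7*, *Tnk2*, *Gfra3* and *Scn7a*, without KO replicate 3 that of *Tnk2*, *Gfra3* and *Scn7a*, without KO+ZnO NPs replicate 1 that of *Scn7a*, and without KO+ZnO NPs replicate 2 that of *Gfra3* and *Scn7a*. Those fits gave edgeR adjusted p values of 0.0569 to 0.142.

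The mice labelled wild type gave a second ZnO NP comparison, with 8085 genes (43.0%) called between WT and the group labelled WT+ZnO NPs, 3922 (20.8%) higher and 4163 (22.1%) lower. Of the 2759 genes called in KO skin, 1814 (65.7%) were called there in the same direction, which is 22.4% of the WT calls, and 40 (1.45%) in the opposite one. The interaction term, which tests whether the 2 responses differ, called 1633 genes (8.68%), 957 with a higher value in KO skin and 676 with a lower one. With library sizes only in place of TMM factors it called 660 higher and 1001 lower. The interaction and the WT comparison rest on libraries whose *Cdc42* level goes against their label and of which all 3 with ZnO NPs and none without hold Y-linked transcripts, so treatment and this difference cannot be told apart there. With Y-linked transcripts as a covariate 125 genes were called. That covariate varied within a group only in KO and in KO+ZnO NPs, so its term rests on those libraries. The cause of the lower count was not tested. Without 1 library the interaction count was 945 (WT replicate 1), 461 (WT replicate 2), 684 (WT replicate 3), 540 (WT+ZnO NPs replicate 3), 645 (KO replicate 1) or 641 (KO replicate 3).

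Interferon-stimulated genes differed between the 2 comparisons. In the libraries labelled WT+ZnO NPs all 28 tested members were called lower than in WT (median -3.5), against 22.1% of all genes. In KO skin 2 were lower and 1 higher (median -0.42), 10.7% against the 14.7% of all genes. The summed level was 4126, 2526 and 2614 CPM in WT and 294.5, 299.2 and 282.9 CPM in those labelled WT+ZnO NPs. It was 350.8, 438.4 and 441.3 CPM in KO and 351.1, 297 and 484.2 CPM in KO+ZnO NPs. Vehicle KO skin was thus already far below WT, near the libraries labelled WT+ZnO NPs. The interaction was called for 25 members. With the Y-linked covariate it was called for 16. *Ifi27l2a*, an interferon-induced mitochondrial protein, was at 41.04, 24.0 and 23.0 CPM in KO and 59.6, 59.7 and 121 CPM in KO+ZnO NPs (log2 fold change 1.45, standard error 0.35, edgeR adjusted p = 0.0228), against 562, 595 and 480.3 CPM in WT and 40.0, 29.4 and 58.2 CPM in those labelled WT+ZnO NPs (interaction log2 difference 5.13, edgeR adjusted p = 0.00124). It rose in KO skin and fell in the WT comparison. *Ddx58*, the RNA sensor RIG-I, and *Oas2*, an antiviral oligoadenylate synthetase, had log2 fold changes of -0.72 and -0.97 in KO skin and -2.20 and -3.24 in the WT comparison. *Pdk4* also went opposite ways, with 206, 146 and 102 CPM in WT and 61.4, 50.5 and 49.4 CPM with ZnO NPs there (interaction log2 difference 3.79, edgeR adjusted p = 0.00186). *Fkbp5*, *Sesn1*, *Defb6* and *S100a10* rose in KO skin, and their values in the WT comparison were -0.47, -0.74, -1.92 and -1.15 on the log2 scale, each with a called interaction. *Fcgr1*, *Ifi209*, an interferon-inducible gene, and *Sdc3*, the cell surface proteoglycan syndecan 3, were lower in both comparisons but less so in KO skin, with log2 fold changes of -2.18, -1.57 and -0.82 against -6.32, -5.94 and -3.77. The fit without KO replicate 2 lost the call of *Ifi27l2a*, *Ddx58*, *Oas2*, *Ifi209* and *Sdc3*, without KO replicate 3 that of *Ifi27l2a*, *Ddx58*, *Oas2* and *Sdc3*, without KO+ZnO NPs replicate 1 that of *Oas2* and *Sdc3*, without KO+ZnO NPs replicate 2 that of *Ddx58* and *Oas2*, and without KO+ZnO NPs replicate 3 that of *Ifi27l2a* and *Sdc3*. There edgeR adjusted p ranged from 0.0532 to 0.159.

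**Figure D5:**
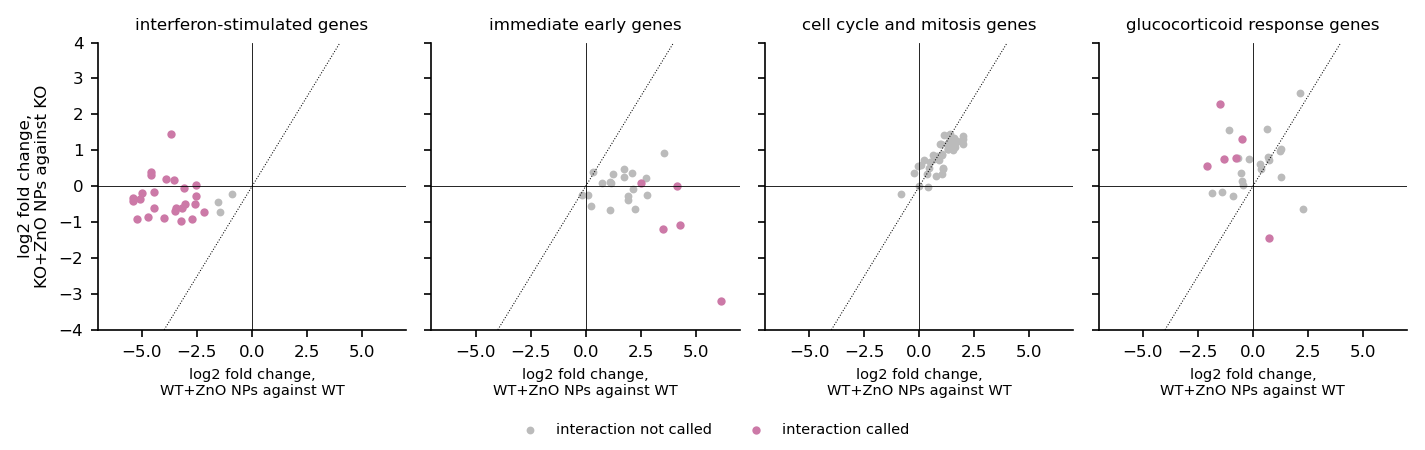
Log2 fold change of KO+ZnO NPs against KO (vertical) against that of WT+ZnO NPs against WT (horizontal) for the members of 4 gene lists, with genes of a called interaction in pink and equal responses on the dotted line. Interferon genes lie far to the left near a vertical value of 0, immediate early genes mostly to the right near 0, and cell cycle genes near the dotted line.

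Immediate early genes, which cells switch on within minutes of a stimulus, were called for 17 of 24 members in the WT comparison, all higher (median 1.9), and for 0 in KO skin (2 at an unadjusted p below 0.05, 0 by DESeq2 on all 12 libraries), with an interaction called for 5. *Junb* was at 376, 257 and 188 CPM in KO and 193, 324 and 114 CPM in KO+ZnO NPs (log2 fold change -0.38, standard error 0.50, edgeR adjusted p = 0.633). *Klf4* was at 399.8, 393 and 235 CPM in KO and 362, 606 and 134 CPM in KO+ZnO NPs (log2 fold change 0.10, standard error 0.54, edgeR adjusted p = 0.915), with overlapping groups. Hair keratins were higher for 17 of 21 members in the WT comparison and hair follicle regulators for 26 of 31, with interactions called for 5 and 13. Of all genes 20.8% were called higher in the WT comparison, and 8.68% had a called interaction. DESeq2 called the interaction for 19 hair keratins, 19 follicle regulators and 9 immediate early genes. With 1 library left out, edgeR's count ranged from 0 (WT replicate 2) to 11 (KO replicate 2) for hair keratins and from 2 (WT replicate 2 or WT+ZnO NPs replicate 3) to 14 (KO replicate 2) for follicle regulators. For immediate early genes it ranged from 0 (WT replicate 2 or 3) to 8 (WT+ZnO NPs replicate 3 or KO+ZnO NPs replicate 2). Cell cycle genes had a median of 1.1 there and 1 in KO skin, and the interaction was called by edgeR for 0 of 44 (5 at an unadjusted p below 0.05, 1 by DESeq2). With the Y-linked covariate the interaction was called for 0 immediate early genes, 0 hair keratins and 1 follicle regulator.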

How the data were processed

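RNA-seq of skin was analysed from the authors' deposited table of read counts per gene, unnormalized whole numbers for 52636 Ensembl genes in 12 libraries. The study's methods name STAR and HTSeq for alignment and counting and a NEBNext Ultra kit, while the sample labels name a TruSeq kit and the submitters' processing notes HISAT2 2.0.5 and the build mm10. Whether the counting used strand is not given in the sources used here. HTSeq by default leaves out reads on more than 1 gene, and 70 of the 159 named genes overlap another annotated gene.

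Names and positions came from GENCODE M21 (GRCm38) for 52489 genes. Counts were tested in R 4.3.3 with the quasi-likelihood test of edgeR 4.0.16 (TMM factors, filterByExpr for low counts, a model of the 4 group means on all 12 libraries with 8 residual degrees of freedom) and Benjamini-Hochberg adjustment over 18822 genes. The printed standard errors are approximate, being computed from each F statistic. The study gives 3 biological replicates a group, and any 2 replicates differed beyond sampling noise (chi-square over its degrees of freedom, 39.3 to 169). Levels are CPM, so depth limits genes of a few counts. Total counts per library ranged from 21076320 to 28867802. List levels are summed CPM over the listed genes.

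Named genes are *Cdc42*, *Fkbp5*, *Trim63* and *Thbs1*, the 12 largest rises and 12 largest falls among called protein-coding genes whose groups did not overlap and whose mean reached 10 CPM, up to 4 called members of smallest p per list (or, with none called, the 2 of highest level), and the 5 genes of smallest interaction p among called ones. *Cd207*, *Slc30a1* and *Nr3c1* were added after their values were seen. A few genes the rule names are not reported here. The comparison, lists and rules were chosen with earlier results of these data known. The steps were tested on simulated data. Alternatives were RLE factors or library sizes only, no filter or at least 10 counts in every library, DESeq2 1.42.0, the 6 libraries compared alone, the replicate number as a block, Y-linked transcripts as a covariate and leaving out each library. Leaving out both KO-group libraries with Y-linked transcripts, or the libraries labelled WT+ZnO NPs, was added after the data had been seen. Promoter windows are RefSeq's (GRCm38.p6).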

Additional observations from a re-analysis of the deposited data

Results flagged for a closer look

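For 27 named genes the change with ZnO NPs differed between KO skin and the WT comparison by the interaction term of edgeR's fit, at an adjusted p below 0.05. The value given is the log2 fold change in KO skin minus that in the WT comparison. Among interferon-stimulated genes it was 5.13 for *Ifi27l2a*, 4.37 for *Ifi209*, 2.27 for *Oas2* and 1.48 for *Ddx58*. For genes of macrophages and other immune cells it was 4.15 for *Fcgr1*, 2.62 for *Ccr1*, 2.53 for *Pik3ap1*, 2.11 for *Cd68*, 1.80 for *Was* and 1.76 for *Cd40*, all lower in both comparisons and less so in KO skin. *Sdc3* (2.94) and *Sod3* (2.01) had the same pattern. Genes that were called higher in KO skin and had a larger value there were *Pdk4* (3.79), *Defb6* (3.30), *Tnnc1* (2.96), *S100a10* (1.99), *Fkbp5* (1.79), *Sesn1* (1.54), *Cox7b* (1.18), *Rpl35a* (0.91) and *Ndufc2* (0.89). Negative values were found for *Krt71* (-12.4, not called in KO skin), *Slc45a2* (-3.56), *Slc7a11* (-3.29), *Mmp12* (-3.28), *Mc1r* (-2.84) and *Tnk2* (-0.58). *Slc45a2*, *Mc1r* and *Tnk2* were higher in both comparisons and more so in the WT one, while *Slc7a11* and *Mmp12* were called lower in KO skin and not called in the WT comparison.

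These values share a limit. Y-linked transcripts were found in each library with the WT+ZnO NPs label and in none of the WT group, so the WT response and this difference cannot be told apart. With Y-linked transcripts as a covariate, whose term rests on the KO and KO+ZnO NPs libraries, 125 genes in all had a called interaction.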

How the results depend on the processing

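The number of genes called between KO+ZnO NPs and KO (2759) stayed within 1.5 times of its value under RLE factors, library sizes only, either filter, DESeq2 on the 6 libraries, the Y-linked covariate and the fits without both libraries with Y-linked transcripts or without those labelled WT+ZnO NPs (2053 to 2840). It was 4236 with DESeq2 on all 12 libraries, 571 with edgeR on only the 6 libraries compared, and 451 to 3195 with 1 library left out. Same-numbered KO and KO+ZnO NPs libraries correlated at 0.429, 0.163 and 0.0508 in their deviations from the group means. Differently numbered ones correlated at -0.414 to 0.276. The value of 0.429 is that of replicates 1, the libraries with Y-linked transcripts. The numbers were not taken to pair mice, and whether they do was not tested. The replicate number as a block gave 2598 calls on all 12 libraries and 0 on the 6 libraries, where 4208 genes had an unadjusted p below 0.05 in edgeR. The WT comparison (8085) gave 3896 with the Y-linked covariate and 5942 to 7177 with 1 library left out. The interaction (1633) gave 1086 without a filter, 3129 with DESeq2, 125 with the Y-linked covariate and 461 to 1646 with 1 library left out. Of the 143 named genes called, 99 were not called by edgeR on only the 6 libraries, 104 without KO replicate 2, and 0 of the 140 with a value by DESeq2 on all 12 libraries. Changes of sign were found for 9 named genes that were not called. Their log2 fold changes with 1 library left out ranged from -0.336 to 0.173 for *Dsp*, -0.312 to 0.282 for *Pkp1*, -0.415 to 0.129 for *Col4a1*, -1.03 to 1.40 for *Tchh*, -0.559 to 1.59 for *Krt71*, -0.442 to 0.52 for *Klf4*, -1.35 to 1.07 for *Hbb-bs*, -1.78 to 0.431 for *Hba-a1* and -0.0382 to 0.352 for *Pkm*. *Tchh* was at 0.214 with the Y-linked covariate and 0.597 without both libraries with Y-linked transcripts, and *Hba-a1* at 0.729 in the latter. *Krt71* was at -0.041 with library sizes only and -0.0288 without a filter. With the replicate block on the 6 libraries *Krt71* was at -0.106, *Klf4* at -0.119 and *Hbb-bs* at -0.414, and with the block on all 12 libraries *Klf4* was at -0.0793. The cause of these differences was not tested. Depth limits genes of a few counts, such as *Lce3b*, *Fpr1*, *Mc1r*, *Tnnc1* and *Ccr3*.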
